A study of Danio rerio with 4 samples.

Results

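Peroxins are the proteins that build peroxisomes and carry enzymes into them, and 8 peroxin genes were examined here, *pex2*, *pex3*, *pex5*, *pex6*, *pex7*, *pex13*, *pex14* and *pex19*. They were chosen by symbol from the table of 16405 zebrafish genes, in which 5 of the 8 were listed (*pex3*, *pex7*, *pex13*, *pex14* and *pex19*). No row carried the symbol or gene ID of *pex2*, *pex5* or *pex6*, so these 3 genes were not analysed here and the genotype labels could not be checked against the transcript of *pex5* itself. The RNA came from whole livers of fasted larvae at 6 days post-fertilization (dpf), with 2 libraries of Wild type (WT) fish (replicates 1 and 4) and 2 libraries of homozygous *pex5* KO fish (replicates 1 and 2). The mutant line descends from a single founder made with CRISPR/Cas9 that carried a small deletion in the *pex5* open reading frame, which is predicted to truncate the protein. Homozygotes were bred by crossing heterozygotes, and every cell of these fish carries the allele. The number of livers in a library is not given in the sources used here, and nothing says whether the libraries of a genotype came from separate clutches, so the p-values below measure only the spread between these libraries. All fish were fasted, so the design compares genotypes and not fasting with feeding.

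Peroxisomes take up folded proteins from the cytosol. Membrane proteins are brought by Pex19, a soluble chaperone that docks on Pex3 in the peroxisome membrane. Matrix enzymes that end in a PTS1 signal, the carboxy-terminal SKL-like tripeptide, are bound by Pex5, and the few that carry an amino-terminal PTS2 signal are bound by Pex7, which in mammals rides on a long form of PEX5. The loaded receptor meets Pex14 and Pex13 at the membrane, where the cargo is released inside. Pex2 and Pex10 belong to a ubiquitin ligase that marks the emptied receptor, and an ATPase complex with Pex6, held at the membrane by Pex26, pulls it back into the cytosol. Hepatocytes are rich in peroxisomes, and mutations in most of these genes cause Zellweger spectrum disorders in humans.

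The libraries were read near the 3′ end by CEL-Seq2, in which a unique molecular identifier (UMI) marks each captured molecule so that PCR copies count once. Values are given as TMM, library-size scaled reads after edgeR normalization by the trimmed mean of M-values. A molecule gives 1 read whatever its length, so levels of different genes are compared as molecules captured at the 3′ end, without division by length. Such comparisons also depend on how well each gene's 3′ end is captured and annotated, which was not tested. The libraries held between 1217737 and 1425834 deduplicated reads, and 1 read corresponded to 0.691 to 0.785 TMM. All 12 hepatocyte markers examined had reads in every library, and 5 had a higher and 7 a lower mean in *pex5* KO (median difference -0.03 in mean log2(TMM + 1)). Their summed level was 133553 to 142752 TMM in WT and 189895 to 192237 TMM in *pex5* KO. *apoa2* was the largest part of this sum in every library and held most of its difference (95170 and 90495 reads in WT, 164977 and 171889 in *pex5* KO). Each library correlated most with a library of the other genotype over the 3349 genes that averaged 10 TMM or more (Pearson's r = 0.927 for WT replicate 1 and *pex5* KO replicate 2, and 0.916 for WT replicate 4 and *pex5* KO replicate 1, against 0.826 within WT and 0.878 within *pex5* KO), where genes are not independent replicates. The summed levels of the exocrine pancreas, skeletal muscle and skin markers overlapped between genotypes and differed widely within WT. In WT replicates 1 and 4 they were 1532 and 3906 TMM, 206 and 1340 TMM, and 19.9 and 133 TMM. The summed levels of 4 other marker lists did not overlap between genotypes. For 7 heart markers the sum was 163 to 217 TMM in WT and 21.8 to 33.9 TMM in *pex5* KO. All 7 had a lower mean in *pex5* KO, and 5 did not overlap between genotypes. *tnnc1a*, with 6 and 8 reads in WT, was at 0 in both *pex5* KO libraries. *myl7* was the largest part of the sum in every library, and *vmhc* and *myh6* overlapped. For 6 erythrocyte markers the sum was 340 to 571 TMM in WT and 918 to 985 TMM in *pex5* KO. *hbae3* was its largest part in every library. Of these 6 genes 5 had a higher and 1 a lower mean in *pex5* KO, and only *hbae3* and *hbbe2* did not overlap. For 3 biliary markers the sum was 827 to 1186 TMM in WT and 731 to 798 TMM in *pex5* KO, nearly all of it *anxa4*. Of the other biliary markers, *sox9b* overlapped between genotypes (18 and 22 reads in WT, 14 and 23 in *pex5* KO). *krt18a.1* was higher in *pex5* KO (1 and 1 reads in WT, 3 and 2 in *pex5* KO). For 6 intestine markers the sum was 717 to 989 TMM in WT and 1947 to 2436 TMM in *pex5* KO, nearly all of it *apoa4b.1*. Without *pex5* KO replicate 1, the only library with many *vil1* reads (276), 1 of the 6 intestine markers was higher in *pex5* KO (median -0.30). The part of these markers in the peroxin values was not tested. In whole liver RNA, fewer cells of a type, less RNA per cell and neighbouring tissue carried over at dissection cannot be told apart.

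The 5 listed peroxins were read at low to moderate levels in larval liver. *pex19* was the highest, with a mean of 25.0 TMM over the 4 libraries, followed by *pex14* (24.4 TMM), *pex13* (10.9 TMM), *pex7* (9.74 TMM) and *pex3* (4.01 TMM). Among the 14832 genes with reads, whose median level was 1.90 TMM, *pex19* stood at percentile 88.1, *pex14* at 87.8, *pex13* at 78.6, *pex7* at 77.1 and *pex3* at 63.0. The order fell into 3 steps. *pex19* and *pex14* could not be separated, since *pex19* had fewer reads than *pex14* in WT replicate 1 and *pex5* KO replicate 2 and more in the other 2 libraries. *pex13* and *pex7* had between 11 and 19 and between 12 and 14 reads per library and overlapped, and *pex3* was below all other members in every library, with 3 to 9 reads.

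**Figure D1:**
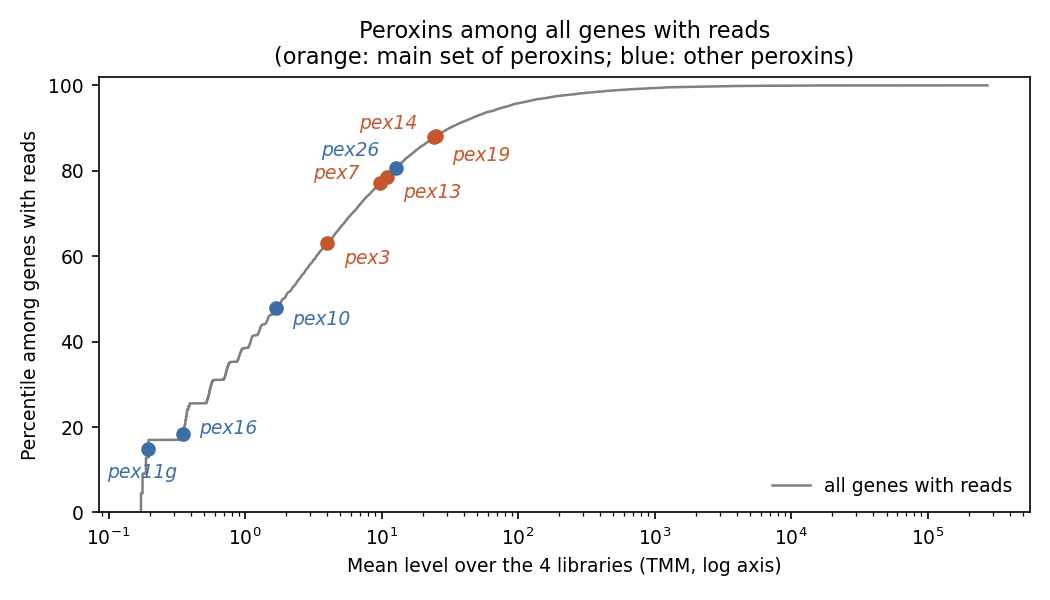
Mean level over the 4 libraries in TMM (log axis) against the percentile among the genes with reads; the grey line is all genes, orange points are the listed members and blue points 4 other peroxins. *pex19* and *pex14* lie together near percentile 88.1 and 87.8, while *pex16* and *pex11g* lie at 18.3 and 14.9.

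Between genotypes, no difference was resolved for any of these 5 transcripts. *pex13* was the only member whose *pex5* KO libraries both stood above the WT libraries, *pex14* and *pex3* had higher means in *pex5* KO with overlapping libraries, *pex19* had the same mean in both genotypes and *pex7* was slightly lower in *pex5* KO. Both *pex5* KO libraries were above both WT libraries for 1 of the 5 members, against 10.6% of the 14832 genes with reads, and both were below for 0 of the 5, against 12.5% of these genes. With limma on log2(TMM + 1) and Benjamini-Hochberg adjustment over these 3349 genes averaging 10 TMM or more, 0% of the genes, and 0 of the 3 members that reached this level, passed an adjusted p under 0.05. At an unadjusted p under 0.05 limma gave 121 genes and voom on the recovered reads gave 94 (0 after adjustment), with no member among them. Leaving out WT replicate 1 gave 9 adjusted calls and leaving out WT replicate 4 gave 3. These fits hold a single WT library, which is assumed to vary like the *pex5* KO libraries, and bear little on the members. The lowest unadjusted p of a member was 0.445 in limma. Its standard errors draw on the spread of all tested genes, not only on that of the gene itself.

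**Figure D2:**
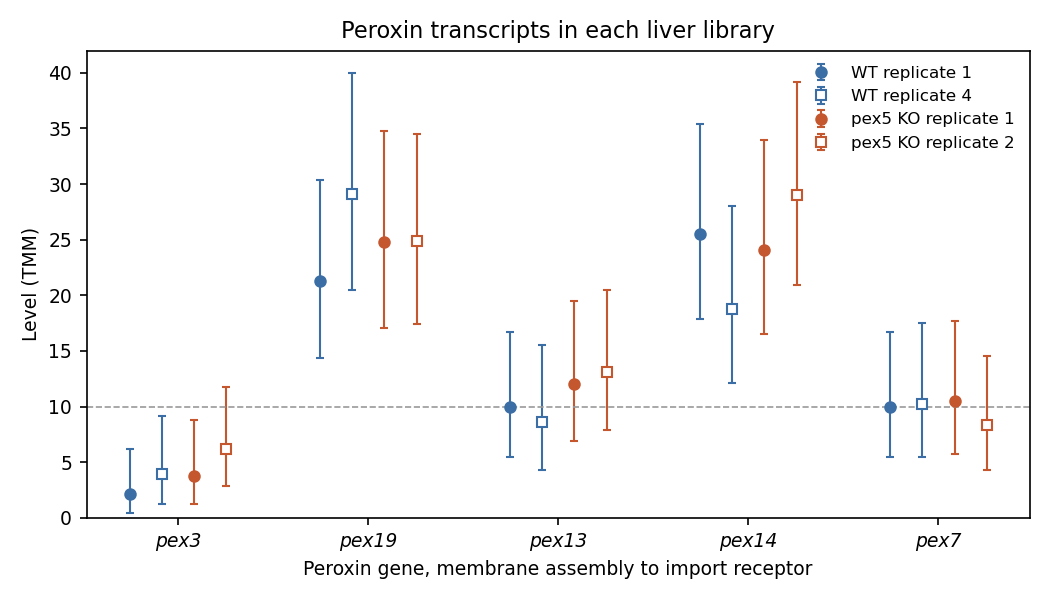
Level of each listed member (TMM) in the 4 libraries, blue for WT and orange for *pex5* KO; bars are 95% exact Poisson intervals, which cover counting error only, and the dashed line is the level of 10 TMM needed for the limma test. Each member's intervals overlap across all 4 libraries, and only *pex13* has both *pex5* KO points above both WT points.

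Membrane protein insertion was represented by *pex3* and *pex19*. *pex3* (ENSDARG00000013973, chromosome 20), which encodes the membrane anchor for Pex19, was represented by 3 (replicate 1) and 5 (replicate 4) reads in WT and by 5 (replicate 1) and 9 (replicate 2) in *pex5* KO. The corresponding levels were 2.13 and 3.93 TMM in WT and 3.76 and 6.22 TMM in *pex5* KO, so *pex5* KO replicate 1 fell between the WT libraries. WT replicate 1 was at the floor of 3 reads taken as the smallest reliable amount, 2.13 TMM in that library. The means were 3.03 ± 1.27 TMM in WT and 4.99 ± 1.74 TMM in *pex5* KO (SD, n = 2 libraries each), a difference of 0.58 in mean log2(TMM + 1). The 2 WT libraries differed from each other by 0.65 on this scale and the 2 *pex5* KO libraries by 0.60. *pex3* was too low for limma, and the exact two-sided permutation test over the 4 libraries gave p = 0.667, where 0.333 is the smallest value that this design allows. At equal scale the ratio of summed reads, *pex5* KO over WT, was 1.69 with a 95% interval from 0.662 to 4.65, so no difference was detectable at this depth. This interval and those below are exact conditional binomial (Clopper-Pearson) intervals and cover counting error only.

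*pex19* (ENSDARG00000004891, chromosome 2), the chaperone and import receptor for peroxisomal membrane proteins, was read from 30 and 37 molecules in WT replicates 1 and 4 and from 33 and 36 in *pex5* KO replicates 1 and 2. Its levels were 21.3 and 29.1 TMM in WT and 24.8 and 24.9 TMM in *pex5* KO. Both *pex5* KO values thus lay between the WT values. The means were 25.2 ± 5.49 and 24.8 ± 0.0590 TMM (SD, n = 2 libraries each). The difference in mean log2(TMM + 1) was 0.00 (limma standard error 0.30, 95% interval from -0.77 to 0.76, adjusted p = 1.00), and the ratio of summed reads was 0.995 (counting interval 0.700 to 1.41). Leaving out WT replicate 4 gave 0.21 and leaving out WT replicate 1 gave -0.22, so its direction was set by which WT library was kept. Within a library *pex19* exceeded *pex3* by 4.00-fold in *pex5* KO replicate 2, 6.60-fold in *pex5* KO replicate 1, 7.40-fold in WT replicate 4 and by 30 reads to 3 in WT replicate 1, with counting intervals that overlapped (from 1.89 to 9.44 in the first and from 3.11 to 51.2 in the last).

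The docking step was represented by *pex13* and *pex14*, both of which had higher means in *pex5* KO. *pex13* (ENSDARG00000071037, chromosome 17), an integral membrane protein of the docking site, was read 14 and 11 times in WT and 16 and 19 times in *pex5* KO. Its levels were 9.93 and 8.64 TMM in WT replicates 1 and 4 and 12.0 and 13.1 TMM in *pex5* KO replicates 1 and 2, so the genotypes did not overlap. The means were 9.29 ± 0.917 and 12.6 ± 0.784 TMM (SD, n = 2 libraries each). The difference in mean log2(TMM + 1) was 0.40 (limma standard error 0.49, 95% interval from -0.84 to 1.64, adjusted p = 1.00), larger than the 0.18 between the WT libraries and the 0.12 between the *pex5* KO libraries. It ranged from 0.28 to 0.49 over the 11 alternatives tried. Because the genotypes did not overlap, changing the pseudocount or filter or leaving out a library could not turn its sign. The ratio of summed reads was 1.35, with a counting interval from 0.787 to 2.36 that includes 1.

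*pex14* (ENSDARG00000028322, chromosome 23), which binds Pex5 and Pex13 at the membrane, was read 36 and 24 times in WT and 32 and 42 times in *pex5* KO. The levels were 25.5 and 18.8 TMM in WT replicates 1 and 4 and 24.1 and 29.0 TMM in *pex5* KO replicates 1 and 2. WT replicate 1 lay between the *pex5* KO libraries, so the genotypes overlapped. The means were 22.2 ± 4.74 and 26.5 ± 3.52 TMM (SD, n = 2 libraries each), with a difference in mean log2(TMM + 1) of 0.26 (limma standard error 0.31, 95% interval from -0.54 to 1.05, adjusted p = 1.00). This was smaller than the 0.42 between the WT libraries. Without WT replicate 4 the difference was 0.05 and without WT replicate 1 it was 0.47. The ratio of summed reads was 1.19 (counting interval 0.836 to 1.70). *pex14* was read more often than *pex13* in each library, by 2.57-fold and 2.18-fold in WT replicates 1 and 4, by 32 reads to 16 in *pex5* KO replicate 1 and by 2.21-fold in *pex5* KO replicate 2, and every counting interval of this ratio lay above 1 (the lowest bound was 1.03 and the highest 5.16).

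Of the receptors for matrix proteins only *pex7* was listed. *pex7* (ENSDARG00000042553, chromosome 20), the receptor for PTS2 cargo, was read 14 and 13 times in WT and 14 and 12 times in *pex5* KO, the narrowest range among the members. Its levels were 9.93 and 10.2 TMM in WT replicates 1 and 4 and 10.5 and 8.30 TMM in *pex5* KO replicates 1 and 2. The *pex5* KO libraries thus stood on either side of the WT libraries. The means were 10.1 ± 0.194 and 9.41 ± 1.57 TMM (SD, n = 2 libraries each), and the difference in mean log2(TMM + 1) was -0.10 (exact two-sided permutation p = 1.00). Without *pex5* KO replicate 2 the difference was 0.06. The ratio of summed reads was 0.930 with a counting interval from 0.522 to 1.66. The other matrix receptor, *pex5*, the export ATPase *pex6* and the ubiquitin ligase subunit *pex2* were not analysed here.

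As a group, the 5 members took 97 (replicate 1) and 90 (replicate 4) reads in WT and 100 (replicate 1) and 118 (replicate 2) in *pex5* KO. Their summed level was 68.8 and 70.7 TMM in WT and 75.2 and 81.6 TMM in *pex5* KO. As CPM (scaled to the library total alone, without TMM factors), the members took 72.3 and 73.9 in WT and 71.2 and 82.8 in *pex5* KO, so that the genotypes overlapped on this scale. Of the 5, 3 had a higher and 2 a lower mean in *pex5* KO, one of the latter being *pex19* at 0.00, and their median difference in mean log2(TMM + 1) was 0.26, against -0.01 for all 14832 genes with reads. Rescaling every library to the same total outside the mitochondrial genome moved the median of all tested genes from 0.00 to -0.12 and that of the members to 0.13.

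Reads of the members scattered little between libraries. The chi-square of a gene's 4 read counts against a single common level, divided by its degrees of freedom, is near 1 when libraries differ by counting alone. It was 0.14 for *pex7*, 0.51 for *pex13*, 0.54 for *pex19*, 0.98 for *pex14* and 1.01 for *pex3*. Among the 3748 genes with as many reads in all (22 to 136), the median was 1.62, the quartiles were 0.79 and 3.53, and 32.6% were at or below 1. The members' 4 libraries thus differed by about as much as counting error gives, in both genotypes together, and this is a description with no test.

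**Figure D3:**
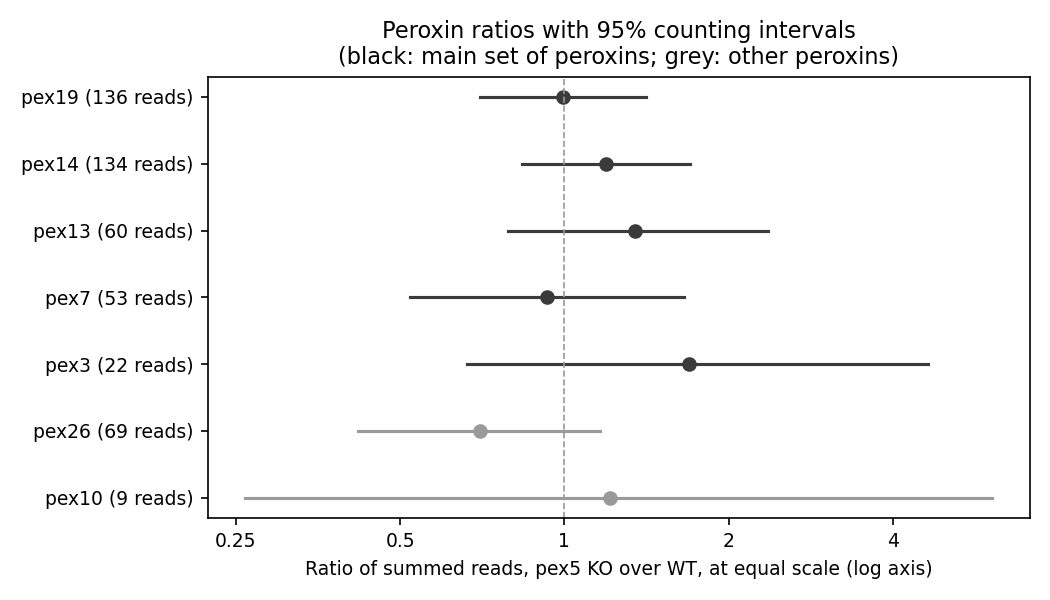
Ratio of summed reads, *pex5* KO over WT at equal scale (log axis), for the listed members (black) and for *pex26* and *pex10* (grey), with the total number of reads in brackets; bars are 95% counting intervals. All 7 intervals include 1, from 0.700 to 1.41 for *pex19* to 0.260 to 6.09 for *pex10*.

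Among other peroxins, *pex26* (chromosome 4), the membrane anchor of the export ATPase, reached 10 TMM. It was read 22 and 18 times in WT and 17 and 12 times in *pex5* KO, or 15.6 and 14.1 TMM against 12.8 and 8.30 TMM, so both *pex5* KO libraries were below both WT libraries. Its difference in mean log2(TMM + 1) was -0.49 (limma standard error 0.45, 95% interval from -1.64 to 0.67, adjusted p = 1.00), the opposite sign to *pex13*, and the ratio of summed reads was 0.700 (counting interval 0.419 to 1.16). *pex10*, a ligase subunit, had 9 reads in all, *pex16*, which acts in membrane assembly, had 2, and *pex11g*, of the family that divides peroxisomes, had 1. For a library with 0 reads the floor of 3 reads was 2.07 to 2.36 TMM, and the upper end of the two-sided 95% Poisson interval was 2.55 to 2.90 TMM. Of these 4 genes 1 had a higher and 3 a lower mean in *pex5* KO, with a median difference of -0.21 in mean log2(TMM + 1). The median rests on *pex16* (-0.01), with 1 read in each genotype, and *pex11g* (-0.42), whose only read was in WT replicate 4. The signs of these 2 genes therefore carry no direction. Together with the 5 members, 4 of 9 peroxins were higher and 5 lower, with a median of 0.00.

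Genes that act around the import cycle were read beside the peroxins, by lists of symbols. Among 12 listed genes of receptor recycling and pexophagy, 8 were higher and 4 lower in *pex5* KO (median 0.17 in mean log2(TMM + 1)), and among 5 of peroxisome division 1 was higher and 4 lower (median -0.21). Without WT replicate 1 both turned, to 4 higher and 8 lower in the first list (median -0.06) and 3 higher and 2 lower in the second (median 0.27), and without *pex5* KO replicate 1 the median of the second was 0.28. Among the 7 genes of the first list that averaged 10 TMM or more, 3 were higher and 4 lower (median -0.04). The 8 higher genes of that list include 1 with reads only in *pex5* KO, which could only be higher. No gene of these lists passed the adjusted threshold of limma. The most abundant were *ube2d2*, a ubiquitin-conjugating enzyme, at 71.7 and 71.5 TMM in WT and 79.7 and 60.8 TMM in *pex5* KO, and *usp9*, a deubiquitinase, at 28.4 and 22.8 TMM in WT and 24.8 and 29.0 TMM in *pex5* KO. *sqstm1*, the p62 autophagy receptor, was at 12.1 and 25.9 TMM in WT and 23.3 and 23.5 TMM in *pex5* KO, and *fis1*, a membrane adaptor of fission, at means of 24.9 ± 1.91 TMM and 22.9 ± 6.95 TMM (SD, n = 2 libraries each). All 4 of these genes overlapped between genotypes. The other division genes named by level, *mffb* and *mffa*, which encode fission factors, had means of 8.98 and 7.83 TMM in WT and 10.4 and 6.46 TMM in *pex5* KO, and only those of *mffa* did not overlap.

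Of the membrane transporters and channels of peroxisomes, 13 of 15 were listed and 10 had reads, 7 with a higher and 3 with a lower mean in *pex5* KO (median 0.23). Without WT replicate 1 this turned to 4 higher and 6 lower (median -0.26). Of the 10 genes, 3 averaged 10 TMM or more, 2 of them higher and 1 lower (median 0.10). The 7 higher genes include 1 with reads only in *pex5* KO, which could only be higher. *pxmp2*, which encodes a channel protein of the peroxisome membrane, was the most abundant at 88.7 and 89.5 TMM in WT and 97.7 and 93.3 TMM in *pex5* KO (difference 0.10 in mean log2(TMM + 1), limma standard error 0.25, adjusted p = 1.00). *tmem135* had means of 19.4 ± 10.3 and 22.5 ± 4.38 TMM and *acbd5a*, a tether between peroxisomes and the endoplasmic reticulum, 13.5 ± 3.08 and 13.2 ± 3.80 TMM (SD, n = 2 libraries each). *abcd3a* and *abcd3b*, chosen after their values were seen, encode the membrane protein Abcd3 (PMP70), which is used as a marker of peroxisomes. *abcd3a* had 0 reads in every library and *abcd3b* had 1 read in all, in WT replicate 4. The paper detected Abcd3 protein by immunofluorescence in larval liver, so these counts do not show that the genes are silent there. Whether their 3′ ends were missed in capture or annotation was not tested.

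The cargo of Pex5 was in sum far more abundant than the listed peroxins. The 37 listed genes of the 45 on the PTS1 list summed to between 9659 and 11838 TMM in a library, against 68.8 to 81.6 TMM for the 5 members. Most of the PTS1 sum came from the 3 most abundant genes of the list, with means of 3982, 3071 and 1197 TMM. This list also holds genes whose products lie mostly in other compartments, such as *sod1*, *idh1* and *prdx5*, and *mvk*, whose product carries a PTS2-type signal. Of the 36 with reads, 29 (80.6%) had a higher and 7 a lower mean in *pex5* KO, with a median of 0.37 in mean log2(TMM + 1), against 47.3% of all genes with a difference. This count includes 6 genes with 0 reads in both WT libraries and 1 or 2 reads in *pex5* KO, which could only be higher. Among the 15 that averaged 10 TMM or more, 10 were higher and 5 lower, with a median of 0.12. Of all 3349 genes at this level, 1692 were higher and 1657 lower, with a median of 0.00. After rescaling to the same total outside the mitochondrial genome, 24 of the 36 PTS1 genes were higher (66.7%, against 41.2% of all genes). Without *pex5* KO replicate 1, 20 of 32 PTS1 genes were higher (62.5%, against 49.3%). None passed the adjusted threshold of limma, where 2 had an unadjusted p under 0.05, 1 of them higher and 1 (*agxtb*) lower in *pex5* KO. The 3 most abundant genes were all lower in *pex5* KO. Urate oxidase (*uox*) was at 4130 and 4439 TMM in WT and 3538 and 3823 TMM in *pex5* KO, and *agxtb* and *agxta*, the alanine-glyoxylate aminotransferases, differed by -0.46 and -0.27 on the log2 scale (standard errors 0.17 and 0.22, adjusted p = 1.00 for both in limma). As paralogs, *agxta* and *agxtb* may share reads.

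For the PTS2 cargo imported by Pex7, *acaa1*, the peroxisomal thiolase of beta-oxidation, was read 26 and 38 times in WT and 81 and 84 times in *pex5* KO. Its level of 24.1 ± 8.05 TMM in WT and 59.5 ± 1.99 TMM in *pex5* KO (SD, n = 2 libraries each) gave a difference of 1.30 in mean log2(TMM + 1) (limma standard error 0.33, 95% interval from 0.46 to 2.15, unadjusted p-value 0.0103, adjusted p = 1.00), which did not pass the threshold. Phytanoyl-CoA hydroxylase (*phyh*) was at 53.9 and 52.6 TMM in WT and 44.3 and 60.1 TMM in *pex5* KO, and *agps*, of ether lipid synthesis, at 9.22 and 7.85 TMM and 9.77 and 5.53 TMM, so that these 2 genes overlapped. Of the 3 genes 1 was higher and 2 lower (median -0.04), and without *pex5* KO replicate 1 or 2 the median was 0.17 or 0.18. The receptor *pex7* itself differed by -0.10 on the same scale.

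**Figure D4:**
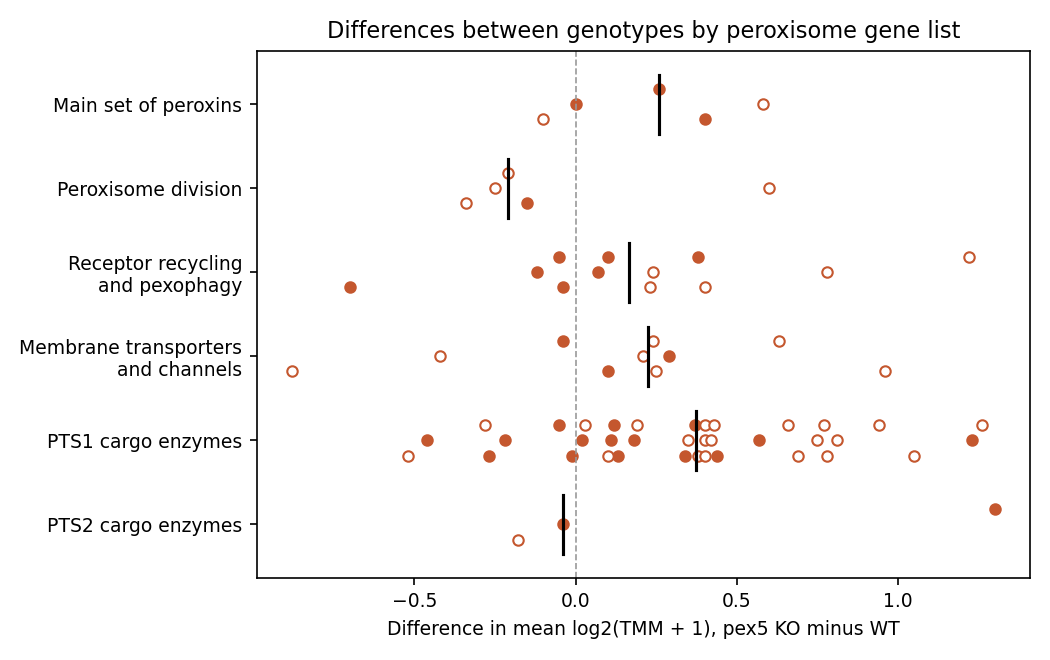
Difference in mean log2(TMM + 1), *pex5* KO minus WT, for each gene with reads in 6 peroxisome gene lists; filled points average 10 TMM or more, open points less, and black bars are medians. The members sit between -0.10 and 0.58 with a median of 0.26, and the PTS1 cargo enzymes have a median of 0.37.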

How the data were processed

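RNA from 2 fasted WT and 2 fasted *pex5* KO liver samples at 6 dpf was sequenced by CEL-Seq2. The authors extracted UMIs (UMI-tools 1.1.1), trimmed reads (Trim Galore 0.6.7), mapped them to GRCz11 (HISAT2 2.2.1), counted them per gene (featureCounts 2.0.1), removed UMI duplicates, normalized by TMM (edgeR), and the deposited values are log2(TMM + 1). The annotation release is not given in the sources used here.

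Undoing the logarithm left values that were integer multiples of a library's smallest value in 100% of cases (tolerance 0.01), which gave reads. Genotypes were compared with limma 3.58.1 in R 4.3.3 (lmFit, eBayes with trend) on genes averaging 10 TMM or more, two-sided, with Benjamini-Hochberg adjustment at 0.05; the fit was checked on simulated reads. Exact permutation tests and counting intervals (95%) used scipy 1.17.1 and numpy 2.4.6 in Python 3.11.15, and figures matplotlib 3.10.9. Every member was named, and of each other list the 3 genes with the highest mean TMM; genes named outside this rule are marked or appear only as examples of a list's content. List symbols were matched by symbol, by gene ID or through a RefSeq gene table of GRCz12tu. Members and lists were chosen with earlier results of these data known. Alternatives covered the pseudocount, filter, scaling, model and each library left out. Values of some other peroxins are not reported here. No sequence table was used, so no sequences are shown.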

Additional observations from a re-analysis of the deposited data

How the results depend on the processing

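Over the 11 alternatives tried, 0 members were called by limma, and between 3 and 4 of the 5 members had a higher mean in *pex5* KO, the change resting on *pex19* at 0.00 and *pex7* at -0.10. The median difference of the members was 0.26, fell to 0.17 with the same total in every library and to 0.13 with the same total outside the mitochondrial genome, as did the median of all tested genes (-0.09 and -0.12), and ranged from 0.13 to 0.39 with a library left out. Leaving out single libraries, *pex19* differences ranged from -0.22 to 0.21, positive without WT replicate 4. Those of *pex7* ranged from -0.25 to 0.06, positive without *pex5* KO replicate 2. *pex3* (0.25 to 0.91), *pex13* (0.28 to 0.49) and *pex14* (0.05 to 0.47) stayed positive under all alternatives. For *pex13*, whose genotypes did not overlap, the pseudocount, the filter and leaving out a library could not change the sign. The number of genes called over all genes was 0 to 9 with a library left out, 9 without WT replicate 1 and 3 without WT replicate 4 (each with a single WT library, so that the spread came from the *pex5* KO libraries), and 0 under the other alternatives. No member reaches 30 TMM, so that filter gave no test of a member. The labels give no pairing of libraries across genotypes, so no paired analysis was possible. Depth limits these values, since the members rest on 3 to 42 reads per library.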
